A study of Mus musculus with 10 samples.

Results

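A set of 9 small structured RNAs was followed, chosen by symbol: Vaultrc5, Rnu11, Rnu12, Rmrp, Rpph1, Rn7sk, Rny1, Rny3 and Terc. Of these 9, 6 had a row among the 24421 genes of the deposited tables, and Rn7sk, Rny1 and Rny3 were not analysed here. The 9 were chosen with earlier results of these libraries known, so their own values are given as a description, with no test. The study sequenced total RNA of 8-cell mouse embryos of BDF1 genotype, with 2 libraries in each of 5 groups. Ctrl is the control, siKlf5 a knockdown of Klf5 and siTfap2c a knockdown of Tfap2c. Arpc1bE_CdxE1_KO and CdxE2_KO are labelled as knockouts of a Tfap2c motif. Klf5 is a Krüppel-like transcription factor and Tfap2c one of the AP-2 family. The labels name no embryo number, injection control or deleted interval for these groups.

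Small structured RNAs work as folded RNA inside a protein particle rather than as templates for protein. Vaultrc5 is a vault RNA, a component of the large cytoplasmic vault particle. Rnu11 and Rnu12 encode the U11 and U12 small nuclear RNAs, which recognise the 5′ splice site and the branch point of the rare introns removed by the minor spliceosome. Rmrp is the RNA of RNase MRP, which cuts precursor ribosomal RNA, and Rpph1 the catalytic RNA of RNase P, which trims the 5′ end of precursor transfer RNA. Terc is the template RNA of telomerase. Rn7sk holds the elongation factor P-TEFb inactive, and Rny1 and Rny3 are Y RNAs, bound by Ro60 and La. Vault RNA, Rmrp, Rpph1, 7SK and Y RNAs are made by RNA polymerase III, and U11 and U12 by RNA polymerase II.

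The sequences of U11 and U12 are shown because these RNAs had large differences between groups and carry a readable protein-binding element. Capitals mark AATTTTT, the letters of a uridine-rich site of the type on which the ring of Sm proteins assembles, read as DNA from GENCODE M21 transcripts (GRCm38).
Rnu11: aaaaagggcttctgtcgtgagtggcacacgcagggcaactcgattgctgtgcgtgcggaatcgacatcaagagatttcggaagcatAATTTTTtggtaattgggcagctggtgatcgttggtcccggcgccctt
Rnu12: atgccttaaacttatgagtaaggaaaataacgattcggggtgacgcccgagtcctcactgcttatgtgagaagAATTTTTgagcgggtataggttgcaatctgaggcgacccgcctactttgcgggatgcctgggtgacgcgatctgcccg
Rnu11 lies at chr4:132270080-132270213 on the minus strand and Rnu12 at chr15:83149644-83149794 on the plus strand. The letters stand at positions 87 to 93 of Rnu11 and 74 to 80 of Rnu12, counted from the 5′ end. AATTTTT was found in neither direction in the other 7 RNAs. Among 4796 annotated transcripts of 100 to 200 bases, 68 (1.42%) held it, and 109 (2.27%) held it on the other strand. Among 1190 snRNA transcripts of that length, 43 (3.61%) held it. A match is a match of letters only.

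Each value is a log2(value + 1), with the kind of abundance not named, so levels are not compared between RNAs here. Depth is unknown. Linear values added up to 388454 to 395401 units in the Ctrl and knockdown libraries and to 478651 to 498621 in the 4 motif knockout libraries. The library medians were correspondingly 0.32 (Arpc1bE_CdxE1_KO) and 0.33 (CdxE2_KO) above Ctrl on the log2 scale, against -0.05 in siKlf5 and 0.02 in siTfap2c. Every difference is therefore given as deposited and also with each library centred on its median. The Ctrl libraries stand only in the table of the motif knockouts, so both knockdown comparisons run across tables that may have been scaled apart. Tfap2c was 6.61 in Ctrl and 4.01 ± 0.11 (SD, n = 2) in siTfap2c, and Klf5 was 7.16 in Ctrl and 4.27 ± 0.14 (SD, n = 2) in siKlf5. All 6 markers of the 8-cell embryo were above 0 in every library, with sums of 499 to 515 linear units in Ctrl, 311 to 316 in siKlf5, 193 to 211 in siTfap2c and 458 to 522 in the knockouts. This list includes Klf5 and Tfap2c themselves, so part of the lower knockdown sums is the fall of the knocked-down genes. Klf5 averaged 142 linear units in Ctrl, 18.3 in siKlf5 and 40.8 in siTfap2c. Tfap2c averaged 96.7 in Ctrl, 92.1 in siKlf5 and 15.2 in siTfap2c. The 4 oocyte markers summed to 27.3 to 27.7 in Ctrl, 24.8 to 30.5 in the knockdowns and 30.9 to 43.7 in the knockouts, and the part of either list in the results was not tested. The 7 cumulus and granulosa markers summed to 0.0579 to 0.542 linear units a library. Fewer cells and less RNA per cell cannot be told apart in whole-embryo libraries.

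Vaultrc5 was close to 0 in Ctrl and both knockdowns and high in both motif knockouts. Its log2 values were 0.18 and 0.04 in Ctrl, 0.16 and 0.14 in siKlf5, and 0.14 and 0.19 in siTfap2c. They were 6.64 and 6.11 in Arpc1bE_CdxE1_KO and 6.17 and 6.15 in CdxE2_KO. The 4 knockout libraries stood apart from the other 6, with linear values of 68.0 to 98.5 against 0.0267 to 0.139. Against Ctrl the log2 difference was 6.26 ± 0.27 (SE) in Arpc1bE_CdxE1_KO and 6.05 ± 0.07 in CdxE2_KO, or 5.94 and 5.71 after centring. Vaultrc5 passed the filter on low values only through the knockout libraries (0 of the 6 other libraries reached 1 linear unit), and no fold is given against a level so near 0.

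U11 and U12 also separated the motif knockouts from the rest. Rnu11 was 4.76 and 5.34 in Ctrl, 5.51 and 4.93 in siKlf5, 4.59 and 5.07 in siTfap2c, 9.60 and 9.41 in Arpc1bE_CdxE1_KO, and 9.54 and 9.42 in CdxE2_KO. Its knockout libraries did not overlap the other 6, which overlapped one another between groups. The difference from Ctrl was 4.45 ± 0.30 (SE) and 4.43 ± 0.29 in the knockouts (4.13 and 4.09 centred), a 22.2-fold and 21.7-fold ratio of linear means. Rnu12 was 5.49 and 4.53 in Ctrl, 4.61 and 3.63 in siKlf5, 4.33 and 5.28 in siTfap2c, 8.92 and 8.87 in Arpc1bE_CdxE1_KO, and 8.27 and 8.54 in CdxE2_KO. Again only the knockout libraries stood clear of Ctrl. The Rnu12 difference was 3.89 ± 0.48 (SE) and 3.40 ± 0.50 (3.57 and 3.06 centred), or 14.4-fold and 10.3-fold. In siKlf5 it was -0.89 ± 0.68, with libraries overlapping Ctrl.

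In the motif knockouts the RNase MRP and RNase P RNAs had smaller differences than those above, while in siTfap2c Rmrp had the largest of the 6. Rmrp was 7.24 and 7.33 in Ctrl, 6.83 and 6.58 in siKlf5, 6.88 and 6.87 in siTfap2c, 9.10 and 8.61 in Arpc1bE_CdxE1_KO, and 8.45 and 8.45 in CdxE2_KO. Its knockout libraries lay above Ctrl and its knockdown libraries below. The Rmrp differences were 1.57 ± 0.25 (SE) and 1.16 ± 0.04 in the knockouts (1.25 and 0.83 centred), and -0.58 ± 0.13 in siKlf5 and -0.41 ± 0.04 in siTfap2c (-0.53 and -0.43 centred). Rpph1 was 7.39 and 7.28 in Ctrl, 7.49 and 7.86 in siKlf5, 7.48 and 7.37 in siTfap2c, 8.65 and 8.11 in Arpc1bE_CdxE1_KO, and 7.92 and 7.85 in CdxE2_KO. Both knockouts and siKlf5 lay above Ctrl, and siTfap2c overlapped it. The Rpph1 difference was 1.05 ± 0.28 (SE) in Arpc1bE_CdxE1_KO, 0.55 ± 0.06 in CdxE2_KO and 0.34 ± 0.19 in siKlf5 (0.73, 0.21 and 0.39 centred).

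In the motif knockouts telomerase RNA had the smallest differences of the 6. Terc was 1.81 and 1.43 in Ctrl, 1.39 and 1.42 in siKlf5, 1.91 and 1.63 in siTfap2c, 2.37 and 1.84 in Arpc1bE_CdxE1_KO, and 1.96 and 1.60 in CdxE2_KO. As deposited, its libraries lay above Ctrl in Arpc1bE_CdxE1_KO and below it in siKlf5, and after centring they overlapped Ctrl in all 4 groups. In CdxE2_KO the sign of the Terc difference turned with the scale, from 0.16 ± 0.26 (SE) as deposited to -0.17 centred.

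**Figure D1:**
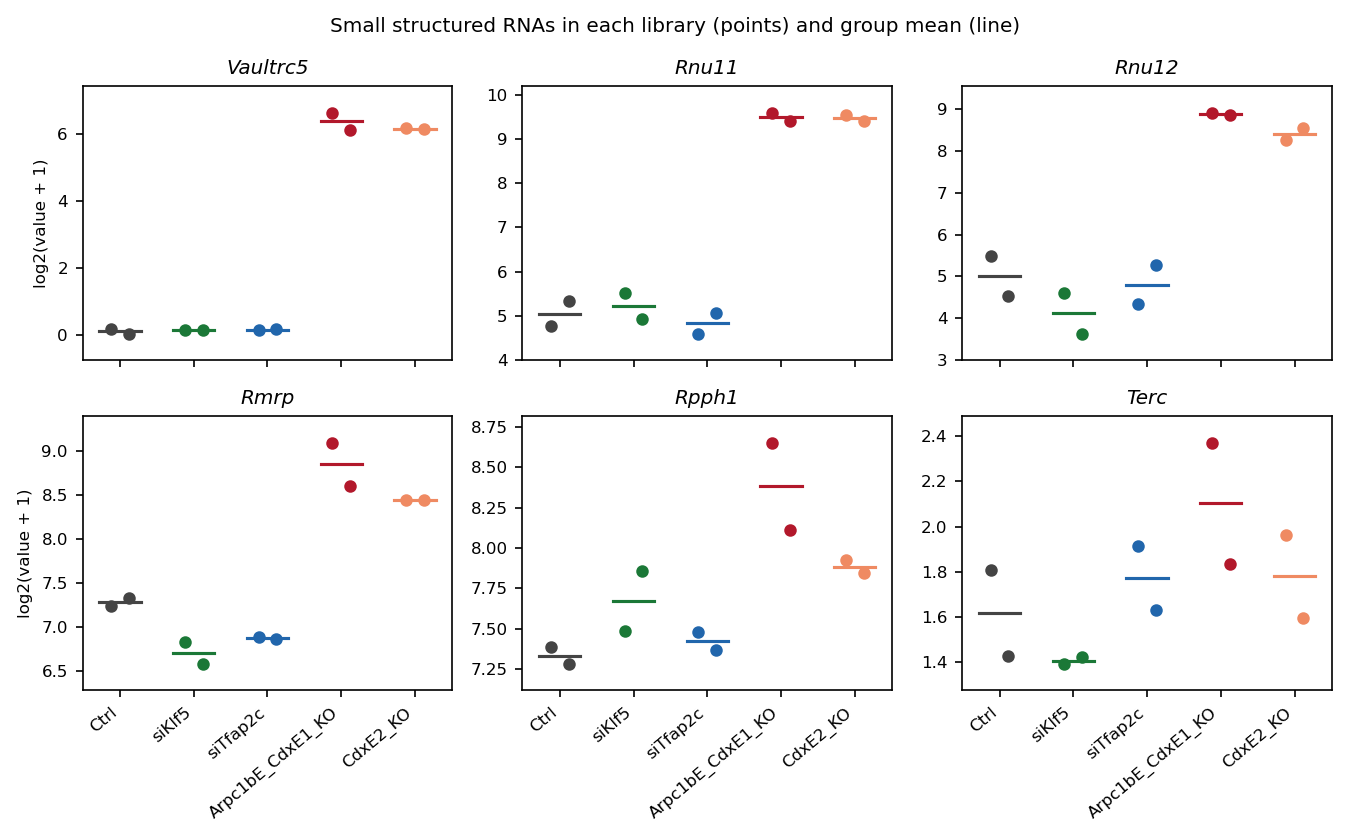
Log2(value + 1) of 6 small RNAs (vertical axis, a separate range in each panel) in the 5 groups; points are libraries and lines group means. Vaultrc5, Rnu11, Rnu12 and Rmrp have all 4 motif knockout libraries above the other 6, while Rpph1 and Terc do not.

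Read over the 6 RNAs with a row, none differed from Ctrl by 1 log2 unit or more in either knockdown, where 0.268% (siKlf5) and 1.70% (siTfap2c) of all genes tested were higher by that much and 1.01% and 3.51% lower. In Arpc1bE_CdxE1_KO 5 of the 6 were higher by at least 1, beside 2.50% of all genes, and 4 after centring, beside 1.16%. In CdxE2_KO 4 of the 6 were, beside 2.64%, and 3 after centring, beside 1.06%. None of the 6 was lower by at least 1 in either knockout, where 0.330% and 0.403% of all genes were. Libraries lay wholly above Ctrl for 6 of 6 in Arpc1bE_CdxE1_KO, where 61.9% of all genes did, and for 5 of 6 in CdxE2_KO, where 66.4% did. None lay wholly below in these groups, beside 5.43% and 7.34%. After centring 5 of 6 lay above in each, beside 21.3% and 25.7%, and none below, beside 32.1% and 34.7%. In siKlf5 1 of 6 lay above (24.9% of all genes) and 2 below (30.4%), and in siTfap2c 0 lay above (36.5%) and 1 below (29.3%). After centring 2 lay above (31.6%) and 1 below (23.9%) in siKlf5, and 0 above (34.7%) and 1 below (31.0%) in siTfap2c. These counts rest on the values that chose the RNAs, so nothing is read from them.

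**Figure D2:**
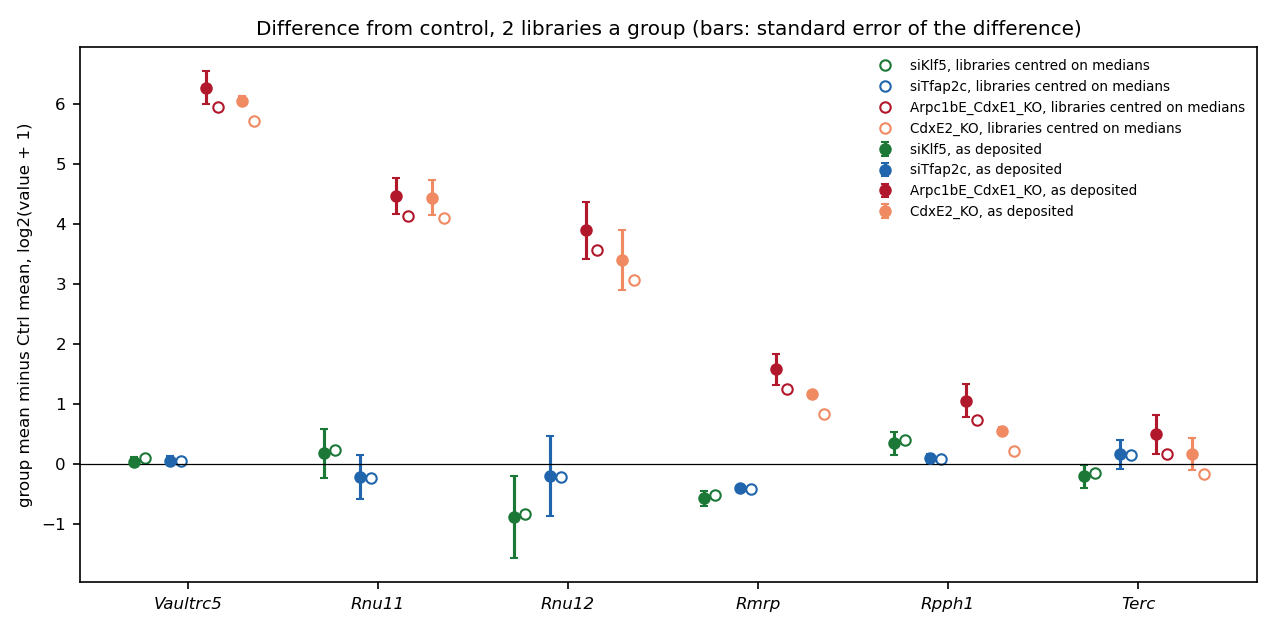
Group mean minus Ctrl mean in log2(value + 1) for each small RNA; filled points are as deposited with the standard error of the difference, and open points are after centring each library on its median. In the motif knockouts the differences run from 6.26 for Vaultrc5 down to 0.16 for Terc, and in the knockdowns they lie between -0.89 and 0.34.

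Both knockout comparisons share the 2 Ctrl libraries, so the ranks below are set side by side as a description. By size of difference among 10920 genes, Vaultrc5 ranked 3 in both, Rnu11 14 and 12, Rnu12 18 and 18, Rmrp 88 and 177, Rpph1 238 and 2155, and Terc 2460 and 7402 (Arpc1bE_CdxE1_KO, then CdxE2_KO). Between the knockouts, the CdxE2_KO mean minus the Arpc1bE_CdxE1_KO mean was -0.49 for Rnu12, -0.41 for Rmrp and -0.50 for Rpph1, with libraries that did not overlap. Vaultrc5, Rnu11 and Terc overlapped between them. For Rpph1 the lowest knockout library minus the highest of the other 6, a siKlf5 library, was -0.01 as deposited and -0.42 centred. The CdxE2_KO and siKlf5 libraries overlapped.

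Genes whose pattern over the 10 centred libraries was most like these RNAs were mostly small nucleolar RNAs, which guide chemical changes of ribosomal RNA. For Vaultrc5 they were Snora26 (Pearson r = 0.9998), Snora47 and Snord15b, and Rnu11 had the same 3 genes, led by Snord15b (r = 0.995). Snora26 had log2 values of 0.015 to 0.038 in the 6 Ctrl and knockdown libraries and 6.54 to 7.29 in the knockouts. Like Vaultrc5, Snora26 thus passed the filter only through the knockout libraries, so their r holds little beyond that step. Rnu12 was most like Snora64 (r = 0.981), Scarna3a and Snord8, and Rmrp most like Snord8 (r = 0.972), Snora44 and Snora65. Scarna3a had log2 values of 0.141 to 0.862 in the 6 Ctrl and knockdown libraries and at least 3.52 in the knockouts. Scarna3a thus also passed the filter only through the knockout libraries, so its r with Rnu12 holds little beyond that step. Rpph1 was most like Nme2 (r = 0.970), Suco and Rpl36a, which encode proteins. Between Vaultrc5, Rnu11, Rnu12 and Rmrp r ran from 0.93 to 0.99, while Rpph1 reached 0.44 to 0.55 with these 4. All of these values share the same libraries and mostly reflect the step between the knockout and other libraries.

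Short genes other than these RNAs were also more often high in the motif knockouts. The annotated transcripts of the small RNAs are 134 bases for Rnu11, 143 for Vaultrc5, 151 for Rnu12, 271 for Rmrp, 319 for Rpph1 and 423 for Terc. Classes of length were chosen after seeing the data. Differences and shares by length or symbol are as deposited, so they include the upward shift of the knockout libraries. Without the small RNAs described here, genes of at most 400 bases had a median difference of 0.66 in Arpc1bE_CdxE1_KO (348 genes, 34.8% higher by at least 1) and 0.54 in CdxE2_KO (31.9%). Genes over 3000 bases had 0.24 (5894 genes, 0.780%) and 0.29 (1.20%). In the knockdowns the 389 short genes had medians of 0.05 and 0.03, with 3.34% higher by at least 1 in each, beside 0.117% (siKlf5) and 1.35% (siTfap2c) of 5997 genes over 3000 bases. The classes were then redrawn once, after the plot by length had shown where the high points lay. In that redrawn class of 100 to 200 bases, 54.8% of 104 genes were higher by at least 1 in Arpc1bE_CdxE1_KO and 60.6% in CdxE2_KO, and its limits were set on the pattern they describe. The other redrawn classes did not follow length in order: 26.2% and 20.5% of 210 genes under 100 bases were higher by at least 1, and 26.5% and 14.7% of 34 genes over 200 and up to 400 bases, the class of Rmrp and Rpph1. The median of that last class was 0.51 in Arpc1bE_CdxE1_KO, beside 0.26 for genes over 1000 bases. In CdxE2_KO it was 0.17, beside 0.29. Among short genes that passed the filter in the Ctrl and knockdown libraries alone, the shares under the first limits were 32.7% and 31.3% of 272. Of 99 snoRNA and scaRNA symbols, 68.7% and 62.6% were higher by at least 1, with median differences of 1.42 and 1.27, and the 90 that passed the filter in the Ctrl and knockdown libraries alone had medians of 1.38 and 1.15. The length classes left out only the small RNAs described here, so these symbols can stand in the short classes too. Length and kind of RNA are thus not separate observations. The part of library preparation, fragment length or scaling in these differences was not tested.

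**Figure D3:**
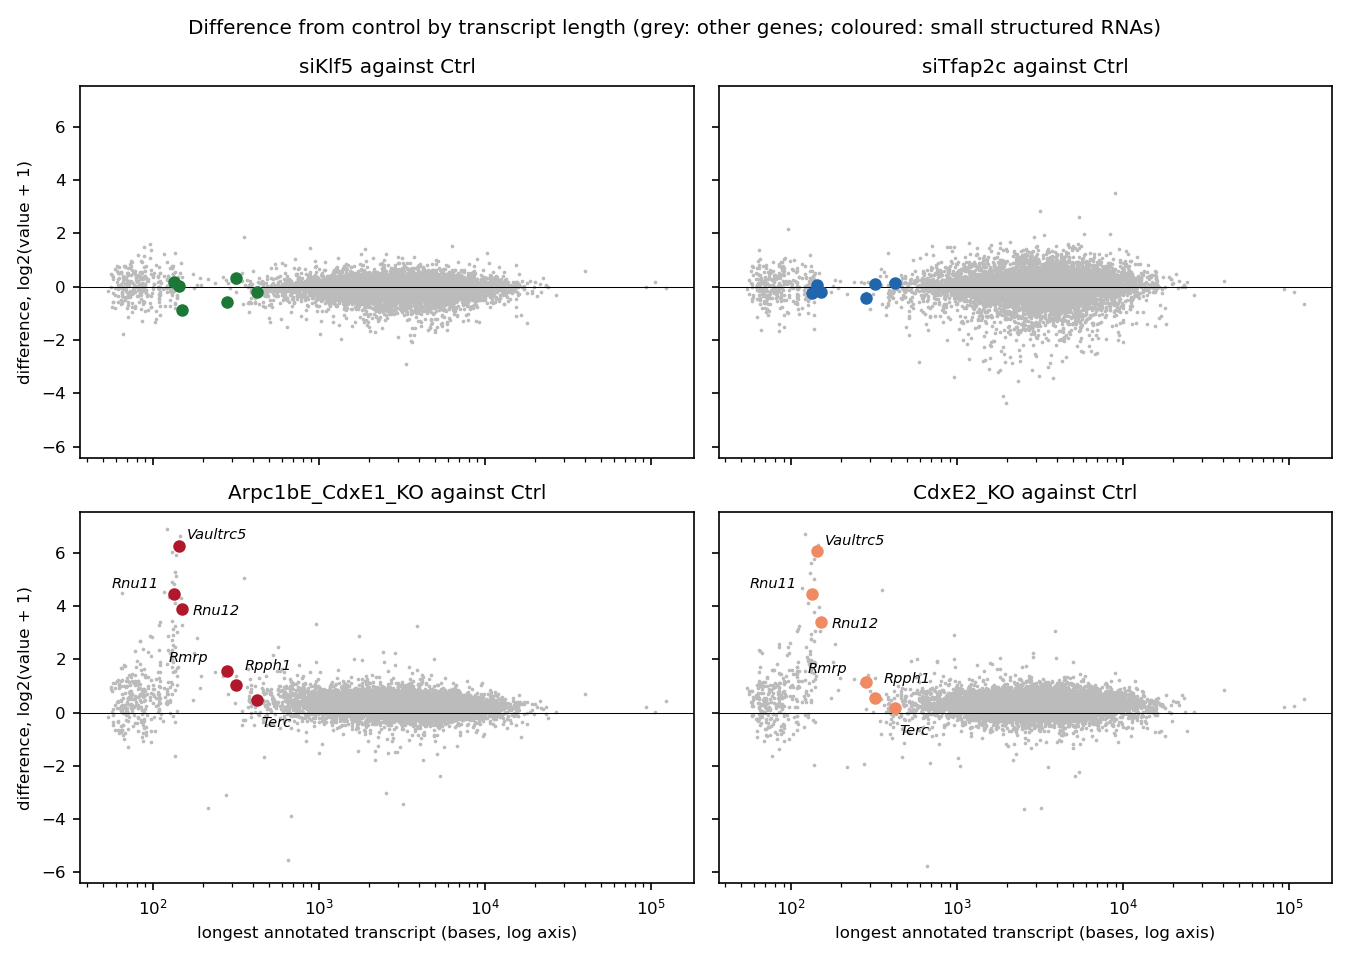
Difference from Ctrl in log2(value + 1) against the longest annotated transcript in bases (log axis) for each comparison; grey points are other genes and coloured points the small RNAs. In both knockouts the points of 100 to 200 bases reach above 6, Vaultrc5 among them, while in the knockdowns no small RNA leaves the range -0.89 to 0.34.

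Other small RNAs gave little to set beside these. Of 22 listed, 8 had a row and 1 was tested. Rprl3, an RNase P RNA-like copy, is 89.6% identical to Rpph1 over 279 aligned bases, with a longest shared run of 37, so reads could have been split between them. It was 3.19 and 3.03 in Ctrl, 4.89 and 4.39 in Arpc1bE_CdxE1_KO, and 4.58 and 4.49 in CdxE2_KO, so its knockout libraries lay above Ctrl. The Rprl3 differences were 1.53 ± 0.26 (SE) and 1.42 ± 0.09 (1.21 and 1.08 centred), and -0.06 and 0.16 in siKlf5 and siTfap2c. Rnu6, the U6 small nuclear RNA, was listed at 0 in 3 of the 4 knockout libraries and reached 1.52 linear units at most elsewhere.

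Some of these RNAs overlap other genes, and whether counting used strand is not given in the sources used here. Exons of Ccnb1ip1 on the same strand cover 233 of the 319 bases of Rpph1 (chr14:50807449-50807767). Exons of Ccdc107 on the opposite strand cover 124 of the 271 bases of Rmrp (chr4:43492788-43493058). Gm28872, on the opposite strand, covers all 134 bases of Rnu11. Ccnb1ip1 rose by 0.83 in Arpc1bE_CdxE1_KO (limma adjusted p = 0.012) and by 0.70 in CdxE2_KO (adjusted p = 0.015), and Ccdc107 rose by 0.62 in Arpc1bE_CdxE1_KO (adjusted p = 0.025). Ttc5, beside Rpph1, rose by 0.79 and 0.68 (limma adjusted p = 0.031 and 0.040), and Taf12, beside Rnu11, by 0.34 in Arpc1bE_CdxE1_KO (adjusted p = 0.047). Each of these calls was lost after centring. Poldip3 and Cyb5r3 beside Rnu12 and Zmat2 beside Vaultrc5 did not pass the test in any comparison. Neither did Gmeb1 beside Rnu11, Arhgef39 beside Rmrp or Parp2, which lies 74 bases from Rpph1. Parp2 differed by 0.26 in Arpc1bE_CdxE1_KO and 0.28 in CdxE2_KO (limma adjusted p = 0.13 and 0.10).

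Genes for the protein partners and the synthesis of these RNAs were tested across all genes, from lists of 113 symbols of which 107 had a row. P-values here measure only the spread between these libraries, which the labels do not say come from separate embryo pools. In siTfap2c 12 of 106 rose and 4 fell (15.1%, beside 24.6% of all genes tested, 12.6% higher and 11.9% lower). Snrnp25 fell by 0.85 (limma adjusted p = 0.00056) and Zcrb1 fell by 0.62 (adjusted p = 0.0029), both proteins of the U11/U12 particle. Snapc3, a subunit of the complex that starts snRNA genes, rose by 0.89 (adjusted p = 0.00079), and Polr3f, a polymerase III subunit, by 0.55 (adjusted p = 0.0018). Gemin6, of the SMN complex that loads Sm rings, rose by 0.59 (adjusted p = 0.0052). These 5 calls held without each library in turn, while leaving out any one Ctrl or siTfap2c library gave 6 to 9 calls in place of 16. Polr3a and Polr3b, of polymerase III, rose by 0.38 and 0.26 and Ccnt1 and Ccnt2, cyclins of P-TEFb, by 0.31 and 0.33, while Pop4, of RNase P and MRP, fell by 0.39. Polr3b and Ccnt2 missed the threshold after centring (limma adjusted p = 0.067 and 0.059).

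In siKlf5 4 of 106 partner and synthesis genes rose and 3 fell (6.60%, beside 7.52% of all genes, 2.25% higher and 5.27% lower). Tep1, a protein of vaults and telomerase, fell by 0.76 (limma adjusted p = 0.018) and Smn1 fell by 0.47 (adjusted p = 0.014). Rnpc3, a U11/U12 protein, rose by 0.42 and Bdp1, a polymerase III initiation factor, by 0.37. Leaving out any one Ctrl or siKlf5 library gave 0 calls in limma, with 16 to 19 genes at an unadjusted p under 0.05.

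In the motif knockouts the partner and synthesis genes shared the upward shift of the libraries. Their median difference was 0.35 in Arpc1bE_CdxE1_KO and 0.39 in CdxE2_KO, beside 0.27 and 0.29 for all genes tested. As deposited, 37 of 105 rose and 0 fell in Arpc1bE_CdxE1_KO (35.2%, beside 24.0% of all genes, 23.2% higher and 0.815% lower), and 52 rose and 1 fell in CdxE2_KO (50.5%, beside 29.9%, 28.5% higher and 1.44% lower). After centring 1 and 2 calls were made (0.952% and 1.90%), beside 2.94% and 6.24% of all genes. Leaving out Ctrl replicate 1 or 2 gave 4 and 1 calls in Arpc1bE_CdxE1_KO, and leaving out any one Ctrl or CdxE2_KO library gave 2 to 16 in CdxE2_KO. The 1 call after centring in Arpc1bE_CdxE1_KO was Gemin6 (0.86 as deposited, 0.54 centred, limma adjusted p = 0.045 centred). The 2 calls after centring in CdxE2_KO were Ints2 (0.79 and 0.46, adjusted p = 0.035) and Rpp21, of RNase P (-0.36 and -0.69, adjusted p = 0.020). Ints2 belongs to the Integrator complex that cuts snRNA 3′ ends. The Rpp21 call as deposited (limma adjusted p = 0.044) was lost with no filter on low values (0.075), without the trend (0.064), with the replicate block (0.052) and without any one Ctrl or CdxE2_KO library (0.072 to 0.23). That of Gemin6 as deposited was lost without Ctrl replicate 2 (limma adjusted p = 0.052). For the minor spliceosome, 4 of 13 proteins rose in Arpc1bE_CdxE1_KO and 7 of 13 in CdxE2_KO, Zrsr1 by 0.78 and 0.76 and Snrnp48 by 0.74 and 0.66, and 0 were called after centring in limma. For vaults, 0 of 3 proteins were called in Arpc1bE_CdxE1_KO and 1 in CdxE2_KO, the major vault protein Mvp (0.43, centred 0.10). The list medians after centring lay between -0.29 and 0.13 in both knockouts, beside -0.05 and -0.04 for all genes.

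**Figure D4:**
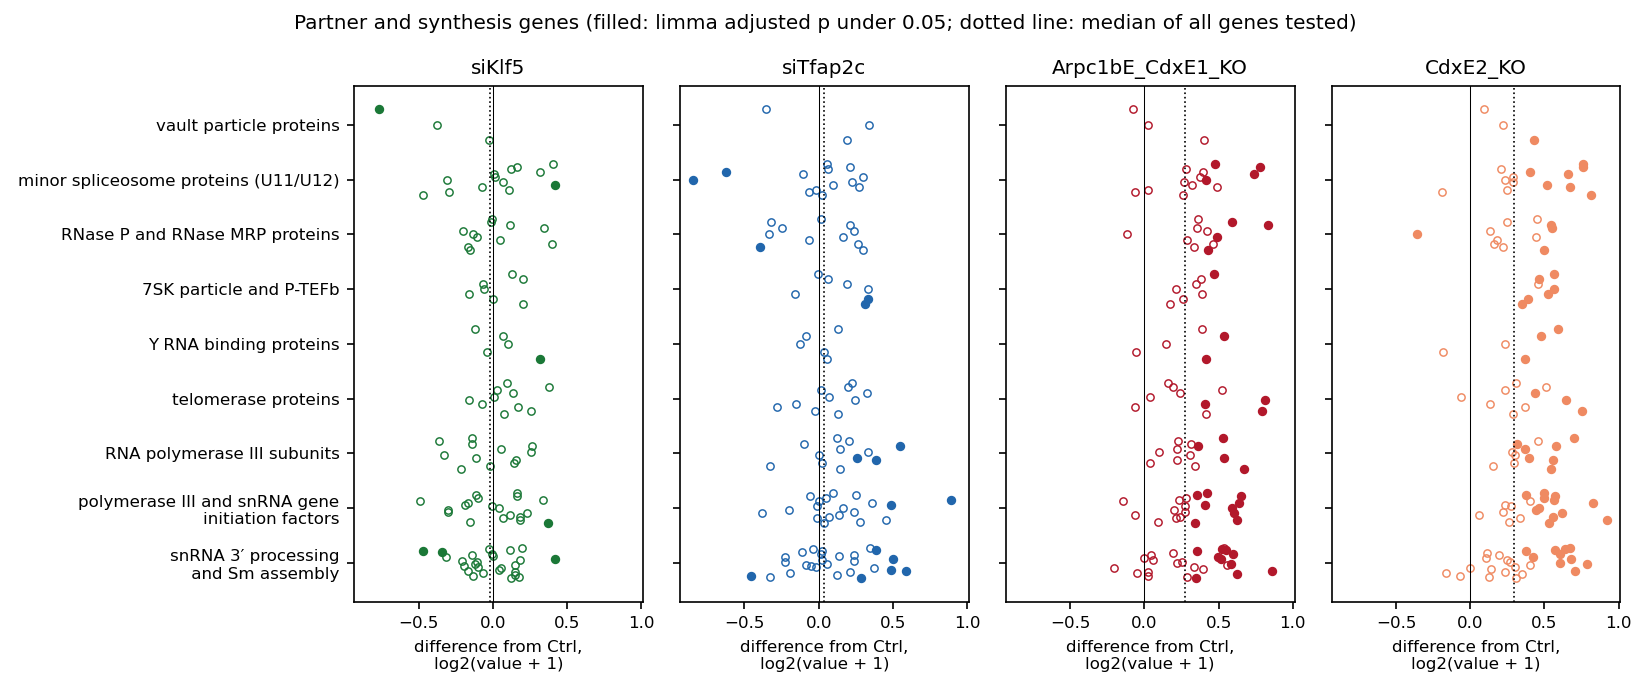
Difference from Ctrl in log2(value + 1) for genes of 9 partner and synthesis lists (rows) in the 4 comparisons; filled points have a limma adjusted p under 0.05 and the dotted line is the median of all genes tested. In the knockouts the median of all genes tested was 0.27 and 0.29 and that of the partner and synthesis genes 0.35 and 0.39. None of the points there reaches 1.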

How the data were processed

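The authors deposited log2 values, 1 per gene and library, in 3 tables for 10 libraries. Values of exactly 0 fit an added constant of 1. The submitters' processing notes name the mm10 build, Cufflinks, StringTie 1.3.4, HISAT2 2.1.0 and SAMtools 1.7; annotation and strand setting are not given in the sources used here. Per the labels' protocols, RNA was extracted with TRIzol, reverse transcribed from random primers with a stranded total RNA kit, and depleted of ribosomal cDNA after amplification.

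The members and lists were chosen with earlier results of these data known. A gene was tested if 2 or more libraries reached 1 linear unit. Tests used limma (version 3.58.1, R 4.3.3) with a trended eBayes prior, and a call needed a Benjamini-Hochberg p under 0.05, adjusted over all genes. Knockdowns were fitted on all 10 libraries (11195 genes) and motif knockouts on the 6 of their table (10920 genes). The fits were tested on simulated data. Named genes are the 9 RNAs, the knocked-down genes, the neighbours, and up to 3 called genes with the lowest p per list and comparison. The 3 genes most like each small RNA are also named where that RNA itself had a mean of at least 10 linear units. Terc, with a mean of 2.40, was left out of that search. Positions, lengths and sequences are from GENCODE M21, and 96.3% of tested genes had a length. Length classes were added after seeing the data and redrawn once; both sets are reported. Alternatives were other scalings, constants, filters and fits, a replicate block, and leaving out each library.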

Additional observations from a re-analysis of the deposited data

How the results depend on the processing

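The motif knockout differences of Vaultrc5, Rnu11, Rnu12, Rmrp and Rpph1 kept their sign under the 7 alternatives run for each. So did Rmrp and Rpph1 in both knockdowns, Rnu12 and Terc in siKlf5, and Terc in Arpc1bE_CdxE1_KO. The smallest of these differences was 0.09, for Rpph1 in siTfap2c. The motif knockout libraries of Vaultrc5, Rnu11, Rnu12, Rmrp and Rpph1 lay wholly above Ctrl. Leaving out 1 library or changing the added constant could therefore not turn those signs, so only the scalings could have done so. Vaultrc5 and Rnu11 in both knockdowns, and Rnu12 and Terc in siTfap2c, turned sign in 1 or 2 of 7. Terc in CdxE2_KO turned sign in 4 of 7. For partner and synthesis genes, 37 calls in Arpc1bE_CdxE1_KO and 53 in CdxE2_KO became 1 and 2 with centring and 1 and 3 with scaling to 1 linear sum. For all genes, 2621 and 3270 calls as deposited became 321 and 681 with centring, of which 143 and 393 were lower against 89 and 157 as deposited, and 296 and 695 with sum scaling. With no filter on low values, more genes were tested and partner calls numbered 1 in place of 7 (siKlf5), 18 (Arpc1bE_CdxE1_KO) and 25 (CdxE2_KO), and calls among all genes 507 in place of 842, 1166 and 1858. Fits without the trend gave 3 partner calls in siKlf5, and only the 4 libraries of the comparison gave 24 in Arpc1bE_CdxE1_KO. Centring moved the share of higher calls in siKlf5 from 29.9% to 46.2%, in Arpc1bE_CdxE1_KO to 178 of 321 and in CdxE2_KO to 288 of 681. Leaving out 1 library gave 0 to 0 partner calls in siKlf5 with limma, with 16 to 19 at an unadjusted p under 0.05, and 211 to 317 calls among all genes. It gave 6 to 9 in place of 16 and 1535 to 1773 in place of 2749 in siTfap2c, 1 to 40 and 161 to 2864 in Arpc1bE_CdxE1_KO, and 2 to 16 and 514 to 1099 in CdxE2_KO. The lowest partner counts came without Ctrl replicate 2 (Arpc1bE_CdxE1_KO, 1, and 4 without Ctrl replicate 1) and without CdxE2_KO replicate 2 (CdxE2_KO, 2). The replicate numbers do not pair the libraries, since deviations of same-numbered libraries correlated between -0.05 and 0.04; a replicate block gave 2 partner calls in siKlf5 and left the other counts within 1.5 times. The share of short genes higher by at least 1 went from 34.8% to 54.8% (Arpc1bE_CdxE1_KO) and from 31.9% to 60.6% (CdxE2_KO) when the class was redrawn to 100 to 200 bases after the plot had been seen. The cause of these moves was not tested. Depth is unknown, and the added constant understates differences of low genes such as Terc and Vaultrc5. With 0.1 added in place of 1, the Vaultrc5 difference was 8.89 in place of 6.26 in Arpc1bE_CdxE1_KO and 8.67 in place of 6.05 in CdxE2_KO.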
